A study of Mus musculus with 6 samples.

Results

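The genes described here are antiviral effectors and sensors that interferons induce. A list of 40 such genes was set, and each was read from the probe set annotated to that gene symbol alone, or, where a gene had several, from the one with the highest mean of the 6 arrays. This gave 36 measured members among the 22180 genes tested. Oas1a, Parp10 and Dtx3l lay only on probe sets that carry several genes, Ifi44 had no row in the annotation used, and these 4 were not analysed here.

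The cells were Raw 264.7, an established mouse line of monocyte and macrophage type. All 6 samples were grown with 10% serum, starved and then cultured with 2% serum. In 3 samples the medium held IL-33, an alarmin cytokine of the IL-1 family, at 50 ng/ml, and 3 samples labelled PBS had none. How long the treatment lasted is not given in these sources. Total RNA was read on 1 whole-transcript array per sample, and the values are log2 expression after RMA normalization. The arrays are called PBS arrays and IL-33 arrays below after the sample titles, which set all directions. The descriptions also name each array, and there the letters IL stand with PBS titles and the letter P with IL-33 titles, so every direction below would turn if the titles were exchanged.

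Type I interferons act through a receptor that activates the kinases JAK1 and TYK2, which phosphorylate STAT proteins. With IRF9 these form a transcription factor complex that binds a DNA element called the ISRE and induces a large set of genes. Their products sense viral RNA, bind or cut it, modify host and viral proteins, or block entry and release of virus. Macrophages express many of these genes at rest, since they make and respond to low amounts of interferon.

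Almost the whole set was slightly higher in the arrays labelled IL-33, and 1 member was clearly lower. Of 36 members, 9 rose, 1 fell and 26 did not pass, where passing means a limma p below 0.05 after Benjamini-Hochberg adjustment over all genes. The 9 that rose were Mx1, Ifit2, Ddx60, Zbp1, Oasl2, Isg20, Parp11, Isg15 and Sp100, by 2.80-fold for Mx1 and 1.26-fold to 1.54-fold for the others. Ifi27 fell, with a level 1.76-fold lower. Of all genes tested, 0.275% rose and 0.316% fell, so 0.591% passed in either direction, and 9 of the 61 genes that rose anywhere were members. The list was chosen with earlier results of these data known. These shares and those below therefore describe it and are no independent test.

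The median log2 difference (IL-33 label minus PBS label) was 0.24 over the 36 members and -0.0051 over all genes. A difference above 0 was found in 35 of the 36 members and in 47.9% of all genes. In 33 members the lowest IL-33 array lay above the highest PBS array, as it did in 10.3% of all genes, and in Ifi27 the order was the reverse. Only Ifit3 and Oas2 had groups that overlapped. At an unadjusted p under 0.05, 32 members were higher, against 6.42% of all genes (limma).

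The shift was alike in the 3 arrays labelled IL-33. With each gene set to its PBS mean, the median member lay at -0.01, 0.02 and 0.01 in PBS replicates 1, 2 and 3, and at 0.25, 0.24 and 0.24 in IL-33 replicates 1, 2 and 3. For all genes these medians ran from -0.0099 to 0.013. PBS replicate 1 was the lowest PBS array in 19 of the 36 members, and IL-33 replicate 2 the lowest IL-33 array in 18. Most differences were small: 31 members were at least 1.1-fold higher and 2 at least 1.5-fold. In bulk RNA, fewer responding cells and less RNA per cell cannot be told apart.

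**Figure D1:**
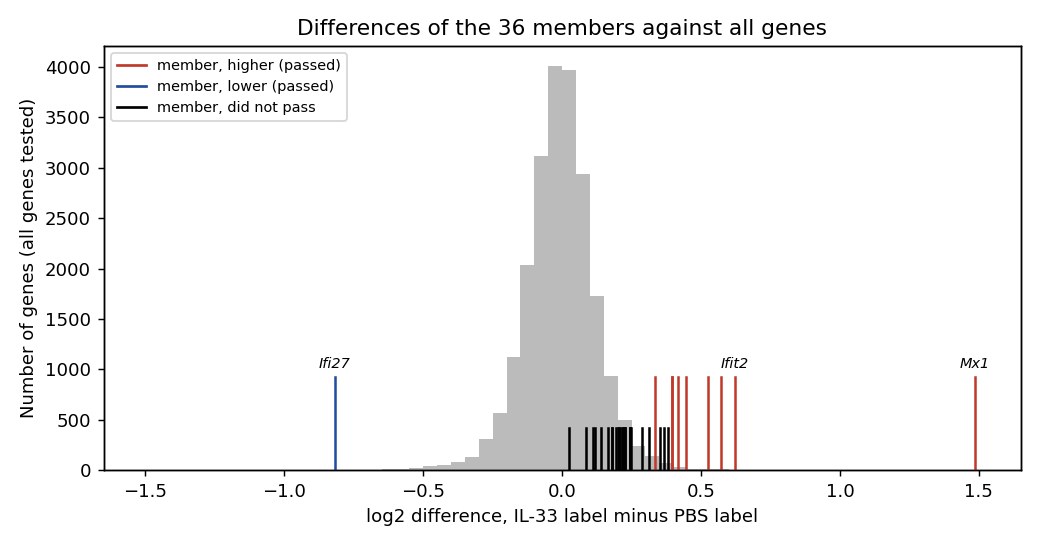
The grey bars count all 22180 genes by log2 difference (IL-33 label minus PBS label, x axis), and each vertical line is 1 of the 36 members, tall and red where it rose, tall and blue where it fell, short and black where it did not pass. The members sit to the right of the bulk of genes, with Mx1 at 1.49 farthest right and Ifi27 at -0.82 alone on the left.

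The number of calls among the members depended on the arrays used. Mx1 and Ifi27 passed whichever array was left out, and they were the only members to pass without PBS replicate 1, PBS replicate 3, IL-33 replicate 2 or IL-33 replicate 3. Without PBS replicate 2, Ifit2 and Ddx60 passed besides them, and without IL-33 replicate 1, Ifit2, Zbp1 and Oasl2 did. Calls over all genes fell too. In these fits 4 to 28 of the 22180 genes passed as higher and 10 to 55 as lower, and with all arrays 61 and 70 did. Over the fits without an array the median difference of the members stayed between 0.23 and 0.25. With a trended and robust prior variance 30 members passed as higher, against 2.39% of all genes. When the test was limited to genes whose mean reached the median of all genes, 24 of 35 members did, against 3.62%. With adjustment over all probe sets, Mx1 was the only member that passed as higher and Ifi27 the only one that passed as lower. Of the 22180 genes, 4 passed as higher and 10 as lower in that setting.

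With 3 arrays a group the precision is limited, and standard errors of log2 differences had a median of 0.053 over the members and 0.073 over all genes. The labels do not say whether the samples of a group were separate cultures, so the p-values rest on a spread between samples that may be technical. The macrophage markers Lyz2, Cd68, Cd14, Csf1r and Itgam had the highest PBS means of their list, 12.87, 12.79, 12.33, 11.63 and 11.52 (log2). The others ran from 11.04 for Adgre1 down to 6.76 for Fcgr3 and 4.85 for Mrc1. None of 10 macrophage markers passed. In 5 of these 10 the groups did not overlap, 2 higher and 3 lower, against 10.3% higher and 10.1% lower of all genes. Among the lower was Adgre1 with a difference of -0.29 ± 0.06 (SE). Summed log2 values of the macrophage list were 103.9 to 104.4 in the PBS arrays and 103.1 to 103.9 in the IL-33 arrays. None of 8 dendritic cell, 7 lymphocyte and 11 fibroblast, endothelial and epithelial markers passed either, and no marker of these 3 lists had groups that did not overlap. In the dendritic list Cd209a had a PBS mean of 10.44, and the next highest was Ly6d at 5.62. Summed log2 values of this list were 42.6 to 43.4 in the PBS arrays and 41.8 to 43.2 in the IL-33 arrays. For the lymphocyte list they were 30.9 to 31.7 and 30.7 to 31.3, and for the fibroblast, endothelial and epithelial list 57.7 to 58.4 and 56.8 to 58.3. The table has no detection calls, so no marker could be called absent. What part these shifts have in the members' differences was not tested.

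Promoters of these genes are where the interferon signal arrives, so the windows that RefSeq gives around their starts (assembly GRCm38.p6, 250 bases before to 50 after) were searched for the core letters of the ISRE on both strands, that is 2 copies of GAAA with any 2 bases between them. Of 26 measured members with a window, 11 held the core, which is 42.3%, against 3.87% of all tested genes with a window. Counted by window, the core lay in 32.4% of 37 windows of listed members and in 3.44% of all 32851 windows. The members were listed as genes that interferons induce, so these contrasts go with the choice of list and are no result of the arrays. Of the 19 matches in listed members, 16 lay wholly before the start. The 3 members that both rose and held the core before the start are given over the whole 250 bases, on the strand of the gene from 5′ to 3′, with the matches in capitals.
Isg15 (chr4:156200819-156201068, minus strand): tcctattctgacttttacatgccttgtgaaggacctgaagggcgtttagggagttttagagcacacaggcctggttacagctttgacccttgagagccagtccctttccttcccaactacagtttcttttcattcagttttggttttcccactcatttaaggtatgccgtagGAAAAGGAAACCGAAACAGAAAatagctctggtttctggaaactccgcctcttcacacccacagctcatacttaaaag
Ddx60 (chr8:61927837-61928086, plus strand): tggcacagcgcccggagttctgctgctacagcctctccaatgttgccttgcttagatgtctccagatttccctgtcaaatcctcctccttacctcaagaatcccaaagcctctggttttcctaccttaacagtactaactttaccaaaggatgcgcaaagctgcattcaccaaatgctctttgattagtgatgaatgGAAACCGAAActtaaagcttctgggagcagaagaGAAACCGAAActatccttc
Parp11 (chr6:127446590-127446839, plus strand): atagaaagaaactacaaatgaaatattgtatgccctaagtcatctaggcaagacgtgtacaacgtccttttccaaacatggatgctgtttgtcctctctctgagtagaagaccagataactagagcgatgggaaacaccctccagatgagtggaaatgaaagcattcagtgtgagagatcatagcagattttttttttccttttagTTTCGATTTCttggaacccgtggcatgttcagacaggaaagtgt
In Isg15, the ubiquitin-like modifier, 3 overlapping matches formed a single block from -78 to -57, counted from the start as 0. Ddx60, a helicase of the RNA sensing machinery, held 2 separate matches at -53 and -19. Parp11, an ADP-ribosyltransferase, held 1 match on the opposite strand at -44.

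The core was also held by members that did not pass. The 5 of these with a match before the start are given to set their cores beside those of the genes that rose, with 25 bases on either side.
Ifit1 (chr19:34640760-34640838, plus strand): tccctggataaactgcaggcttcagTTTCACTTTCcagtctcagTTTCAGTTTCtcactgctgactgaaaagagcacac
Ifit3 (chr19:34583348-34583441, plus strand): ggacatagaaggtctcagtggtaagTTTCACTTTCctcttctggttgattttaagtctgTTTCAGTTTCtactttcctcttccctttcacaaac
Bst2 (chr8:71537562-71537627, minus strand): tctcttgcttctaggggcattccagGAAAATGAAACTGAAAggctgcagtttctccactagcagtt
Rsad2 (chr12:26456538-26456597, minus strand): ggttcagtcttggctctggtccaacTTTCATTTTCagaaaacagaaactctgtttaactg
Oas3 (chr5:120777700-120777759, minus strand): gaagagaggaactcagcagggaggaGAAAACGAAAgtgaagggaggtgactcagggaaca
Ifit1 and Ifit3, which encode related RNA-binding proteins, each held 2 matches on the opposite strand, and the words in capitals were the same in both genes. Bst2, which encodes the tether that holds budding virus at the cell surface, held 2 overlapping matches. In Ddx58, Eif2ak2 and Ifih1 the match lay after the start, at 2, 18 and 32.

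Among members with a window, differences with and without the core were close. The 11 with it had a median log2 difference of 0.22, with 3 that rose, and the 15 without it had a median of 0.24, with 4 that rose. The 4 that rose without it were Ifit2, Oasl2, Isg20 and Sp100. Only exact core letters inside the window were counted, so a member without a match may still hold the element elsewhere or with changed letters. The core letters of the GAS element, another DNA element of interferon responses, TTCNNNGAA, which read alike on both strands, were in 8 of the 26 members, or 30.8%, against 9.15% of tested genes with a window. The choice of list bears on this share as well. A match of the GAS core overlapped an ISRE core match in 2 members, Bst2 and Parp11. Dhx58, Zbp1, Oas2, Parp9, Parp10, Parp14, Usp18, Mx1, Mx2, Rtp4 and Ifi27 had no window in the table used.

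**Figure D2:**
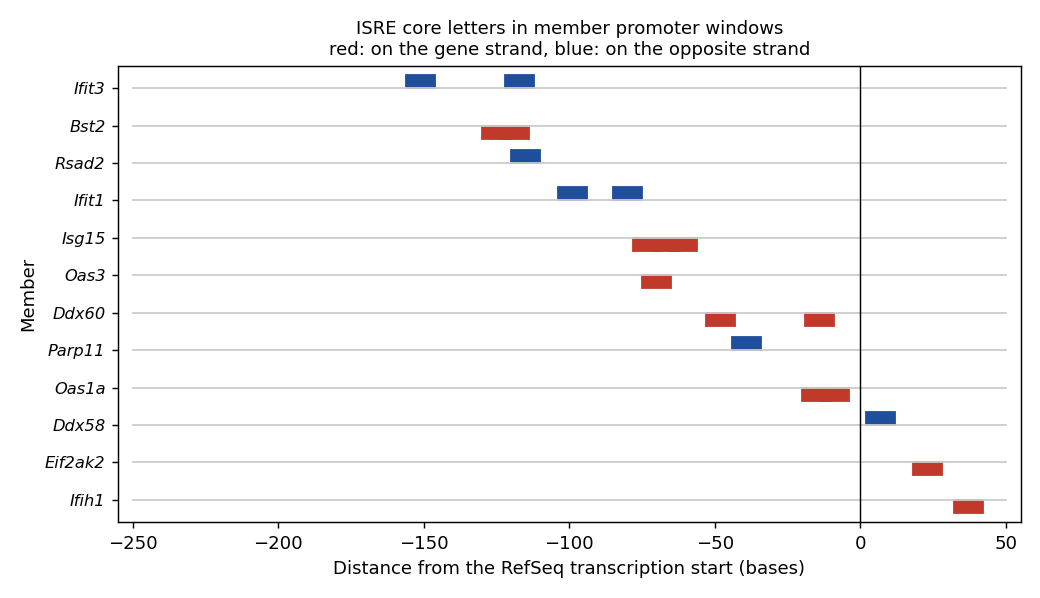
Each row is a listed member whose window held the ISRE core, and each block is 1 match of 10 letters at its distance in bases from the RefSeq start (x axis, start at 0), red on the gene strand and blue on the opposite strand. Matches of 9 of the 12 members lie before the start, between -156 and -5, and those of Ddx58, Eif2ak2 and Ifih1 lie after it.

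The direct antiviral effectors had the largest single rise. Of 9 members 3 rose, Mx1, Isg20 and Sp100, and 6 did not pass, and all 9 had groups that did not overlap. For this and the functions below, the shares of all genes are 0.275% that rose and 10.3% with separate groups and IL-33 higher. The median log2 difference of the 9 effectors was 0.23. Mx1 encodes a dynamin-like GTPase that traps viral nucleoprotein, and the RefSeq gene table lists the mouse reference copy as a transcribed pseudogene. Its log2 values were 4.50, 4.84 and 4.85 in the PBS arrays and 6.13, 6.30 and 6.21 in the IL-33 arrays. Every IL-33 array lay more than 1 log2 unit above every PBS array, a rise of 2.80-fold (limma, adjusted p 0.00407). The difference was 1.49 ± 0.10 (SE) on the log2 scale, and 1.37 to 1.55 when 1 array was left out. The PBS values lie in the lower part of the array scale and the table has no detection calls, so they are not shown to be above background and the fold may be a lower bound.

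Isg20, a 3′ exonuclease that degrades viral RNA, had log2 values of 8.71, 8.72 and 8.76 in the PBS arrays and 9.17, 9.14 and 9.13 in the IL-33 arrays. It rose 1.33-fold (limma, adjusted p 0.0213), and the arrays of each group lay within 0.05 of each other. Sp100, a protein of PML nuclear bodies that restricts DNA viruses, had values of 10.45, 10.47 and 10.47 in the PBS arrays and 10.74, 10.81 and 10.83 in the IL-33 arrays. The rise of 1.26-fold was the smallest of those that passed, at an adjusted p of 0.0485 (limma), and was lost whichever array was left out. Sp100 has 4 probe sets, and the other 3 had log2 differences of 0.24, 0.23 and -0.06. With the mean of its probe sets the difference was 0.19 and the adjusted p 0.269, and with its second probe set the adjusted p was 0.149 (limma).

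The effectors that did not pass had differences between 0.11 and 0.37. Mx2, the other Mx GTPase gene, which the RefSeq table also lists as a transcribed pseudogene, had log2 values of 7.68, 7.97 and 7.98 in the PBS arrays and 8.37, 8.23 and 8.13 in the IL-33 arrays. Its difference of 0.37 ± 0.10 (SE) was larger than that of Sp100, but its arrays spread more, with PBS replicate 1 the lowest, and the adjusted p was 0.197 (limma). Samhd1, which hydrolyses the nucleotides that reverse transcription needs, had values of 11.14, 11.12 and 11.16 in the PBS arrays and 11.35, 11.31 and 11.36 in the IL-33 arrays. Its groups did not overlap and its adjusted p was 0.138 (limma). Cmpk2, a mitochondrial nucleotide kinase encoded next to Rsad2, had values of 11.32, 11.39 and 11.31 in the PBS arrays and 11.55, 11.63 and 11.53 in the IL-33 arrays, with an adjusted p of 0.143 (limma). Rsad2, the radical SAM enzyme viperin that makes a chain-terminating nucleotide, differed by 0.19 ± 0.06 (SE), the tether gene Bst2 by 0.18 ± 0.06 (SE) and the RNA editing enzyme gene Adar by 0.11 ± 0.05 (SE). The adjusted p ran from 0.229 for Rsad2 to 0.387 for Adar (limma).

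Sensors of foreign nucleic acid were all higher, and 2 of 7 rose. The median log2 difference was 0.25, and no member had groups that overlapped. Zbp1, which binds left-handed nucleic acid and starts necroptosis, had log2 values of 10.22, 10.27 and 10.25 in the PBS arrays and 10.78, 10.73 and 10.81 in the IL-33 arrays. It rose 1.44-fold (limma, adjusted p 0.0133), and the gap between the groups, 0.47, was larger than the spread within either. Ddx60 had values of 7.64, 7.85 and 7.68 in the PBS arrays and 8.25, 8.29 and 8.35 in the IL-33 arrays. It rose 1.49-fold (limma, adjusted p 0.0266), although PBS replicate 2 lay above the other PBS arrays by more than 0.1.

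The 3 RIG-I-like receptors, which recognise viral RNA in the cytoplasm, did not pass. Dhx58, the regulatory member LGP2 that has no signalling domain, had log2 values of 10.05, 10.10 and 10.19 in the PBS arrays and 10.42, 10.39 and 10.47 in the IL-33 arrays and an adjusted p of 0.0796 (limma). Ifih1, which encodes MDA5 and reads long double-stranded RNA, had values of 10.64, 10.71 and 10.64 in the PBS arrays and 10.87, 10.91 and 10.96 in the IL-33 arrays. Ddx58, which encodes RIG-I and reads RNA with a triphosphate end, had values of 11.22, 11.31 and 11.23 in the PBS arrays and 11.47, 11.46 and 11.48 in the IL-33 arrays. In all 3 the groups were separate, with log2 differences of 0.31, 0.25 and 0.22, and the 3 IL-33 values of Ddx58 spanned 0.02. The kinase gene Eif2ak2, whose product PKR stops translation, differed by 0.23 ± 0.06 (SE), and Znfx1, a helicase at mitochondria, by 0.20 ± 0.05 (SE). For Ifih1, Ddx58, Eif2ak2 and Znfx1 the adjusted p ran between 0.114 and 0.167 (limma).

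Of the 3 genes for IFIT proteins, a family of RNA-binding proteins, Ifit2 rose, and Ifit1 and Ifit3 did not pass. Ifit2 had log2 values of 7.72, 7.72 and 7.62 in the PBS arrays and 8.35, 8.26 and 8.31 in the IL-33 arrays, a rise of 1.54-fold (limma, adjusted p 0.0113). Ifit1 had values of 9.97, 9.96 and 9.88 in the PBS arrays and 10.21, 10.09 and 10.01 in the IL-33 arrays, and its lowest IL-33 array lay only 0.04 above the highest PBS array. Ifit3, the partner that stabilises Ifit1, had values of 6.86, 6.87 and 6.96 in the PBS arrays and 6.96, 6.89 and 7.11 in the IL-33 arrays, with groups that overlapped. The differences of Ifit1 and Ifit3 were 0.16 ± 0.07 (SE) and 0.09 ± 0.07 (SE), with adjusted p of 0.360 and 0.676 (limma). The 95% interval of Ifit3 ran from -0.08 to 0.26 and that of Ifit2 from 0.49 to 0.75 (log2). No test compared these genes with each other. Ifit3 has a near copy, Ifit3b, named after its values were seen, whose difference was 0.27 ± 0.05 (SE), and probes may not tell the copies apart.

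In the OAS family, whose classic members make oligoadenylates that switch on RNase L, 1 of 4 rose and the median log2 difference was 0.16. The riser was Oasl2, an OAS-like gene with ubiquitin-like domains, at 11.01, 11.05 and 11.02 in the PBS arrays and 11.49, 11.47 and 11.45 in the IL-33 arrays. It rose 1.36-fold (limma, adjusted p 0.0160), and the arrays of each group lay within 0.05 of each other. Oasl1, an OAS-like protein that represses translation of IRF7, had values of 11.23, 11.27 and 11.24 in the PBS arrays and 11.36, 11.41 and 11.34 in the IL-33 arrays, and Oas3, which makes oligoadenylates on long RNA, had 10.995, 10.98 and 10.93 in the PBS arrays and 11.17, 11.15 and 11.22 in the IL-33 arrays. Both had separate groups and did not pass, with adjusted p of 0.354 and 0.148 (limma).

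Oas2 was the flattest member. Its log2 values were 10.44, 10.45 and 10.58 in the PBS arrays and 10.65, 10.45 and 10.44 in the IL-33 arrays, so IL-33 replicate 1 was the highest array and IL-33 replicate 3 among the lowest. The difference was 0.02 ± 0.08 (SE) with a 95% interval from -0.16 to 0.21, and it turned to -0.05 without IL-33 replicate 1.

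The ISG15 system attaches the ubiquitin-like protein ISG15 to other proteins and removes it again. Of its 4 members Isg15 rose and 3 did not pass, and the group had the highest median difference of the 7 functions, 0.31. Isg15 had log2 values of 8.57, 8.61 and 8.58 in the PBS arrays and 8.97, 8.97 and 9.004 in the IL-33 arrays, a rise of 1.31-fold (limma, adjusted p 0.0238). Ube2l6, the conjugating enzyme, had 10.21, 10.21 and 10.21 in the PBS arrays and 10.68, 10.51 and 10.58 in the IL-33 arrays. Its 3 PBS arrays lay within 0.01 of each other and its IL-33 arrays spread over 0.17. The difference was 0.38 ± 0.06 (SE) and the adjusted p 0.05001 (limma), just above the threshold.

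Herc6, the mouse ligase of the pathway, had log2 values of 9.70, 9.74 and 9.62 in the PBS arrays and 9.96, 9.93 and 9.90 in the IL-33 arrays. Usp18, the protease that removes ISG15 and also damps the interferon receptor, had 12.53, 12.55 and 12.52 in the PBS arrays and 12.71, 12.78 and 12.79 in the IL-33 arrays. Both had separate groups with differences of 0.24 ± 0.05 (SE) and 0.22 ± 0.05 (SE), and adjusted p of 0.118 and 0.119 (limma).

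Of 4 measured members of the PARP family, which transfer ADP-ribose to proteins, Parp11 rose and 3 did not pass. At the median these genes differed by 0.25 (log2). Parp11 had log2 values of 8.01, 7.97 and 8.07 in the PBS arrays and 8.42, 8.41 and 8.40 in the IL-33 arrays, a rise of 1.32-fold (limma, adjusted p 0.0288). The 3 IL-33 arrays lay within 0.03 of each other. Parp14, a large macrodomain protein, had values of 10.22, 10.10 and 10.07 in the PBS arrays and 10.42, 10.37 and 10.47 in the IL-33 arrays, with an adjusted p of 0.107 (limma). Parp12, a zinc-finger member, had 11.74, 11.74 and 11.77 in the PBS arrays and 11.97, 11.93 and 11.99 in the IL-33 arrays, with an adjusted p of 0.119 (limma). Parp9, the partner of the ubiquitin ligase DTX3L, had 9.31, 9.37 and 9.24 in the PBS arrays and 9.50, 9.43 and 9.54 in the IL-33 arrays, with an adjusted p of 0.262 (limma). In all 3 each IL-33 array lay above each PBS array.

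The remaining 5 members held the fall. Ifi27, which encodes a small membrane protein of mitochondria and is used as a blood marker of interferon in humans, had log2 values of 9.53, 9.45 and 9.57 in the PBS arrays and 8.75, 8.66 and 8.69 in the IL-33 arrays. Its highest IL-33 array lay 0.70 below its lowest PBS array, and its level was 1.76-fold lower (limma, adjusted p 0.00387). Its difference of -0.82 ± 0.06 (SE) ranked 9 among all genes by p, ahead of Mx1 at 11, and lay between -0.85 and -0.79 when 1 array was left out. The probe set is that of Entrez gene 52668. The mouse has close relatives of this gene, and Ifi27l2b, named after its values were seen, differed by 0.03 ± 0.07 (SE), while Ifi27l2a was not analysed here.

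The other 4 of this group were higher and did not pass. Xaf1, a promoter of apoptosis, had log2 values of 9.55, 9.66 and 9.66 in the PBS arrays and 9.96, 9.93 and 10.03 in the IL-33 arrays, with an adjusted p of 0.0593 (limma). Ifi35, which regulates RIG-I signalling, had 10.06, 10.08 and 10.04 in the PBS arrays and 10.29, 10.35 and 10.29 in the IL-33 arrays, with an adjusted p of 0.0901 (limma), and its other probe set differed by -0.09. Rtp4, which binds and restrains viral replication complexes, had 9.56, 9.58 and 9.60 in the PBS arrays and 9.89, 9.78 and 9.81 in the IL-33 arrays, with an adjusted p of 0.110 (limma). Lgals3bp, a secreted glycoprotein that binds galectins, differed by 0.14 ± 0.05 (SE), and its other probe set also by 0.14. In all 4 the groups were separate.

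**Figure D3:**
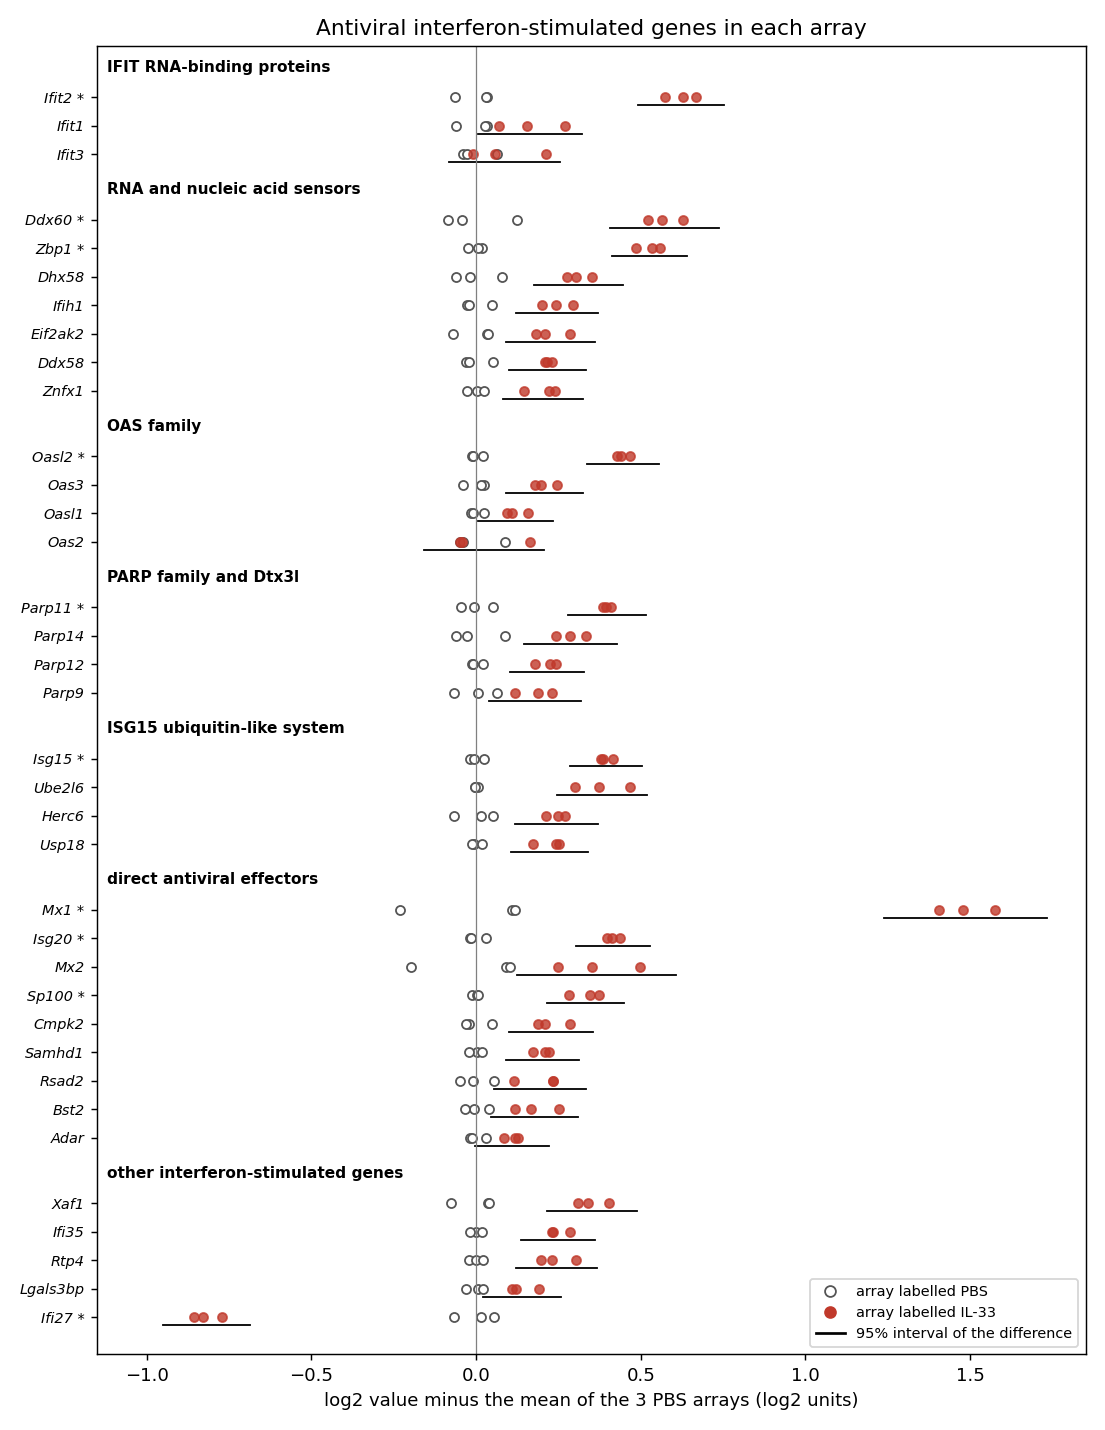
Each row is 1 of the 36 members, grouped by function, and each circle is 1 array as its log2 value minus the mean of the 3 PBS arrays (x axis), open for PBS and red for IL-33. The line under each row is the 95% interval of the difference and an asterisk marks a gene that passed. The red circles lie to the right of the open ones in 33 rows, they overlap in Ifit3 and Oas2, and in Ifi27 they lie to the left.

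The rest of the pathway was read from lists of interferons, receptors, signal carriers, endosomal sensors and further effectors that were not members. Of 66 measured genes 3 rose, none fell and 63 did not pass, while 0.275% of all genes rose and 0.316% fell. The 3 were Stat2 among the receptor and JAK-STAT genes and Slfn1 and Epsti1 among the 22 further effectors. In 34 of the 66 the groups did not overlap with IL-33 higher and in 2 with IL-33 lower, against 10.3% and 10.1% of all genes. The median log2 difference of the 66 was 0.11. These lists too were chosen with earlier results known, so the shares only describe them. Stat2, a STAT protein of the ISRE-binding complex, had log2 values of 10.32, 10.38 and 10.40 in the PBS arrays and 10.84, 10.82 and 10.69 in the IL-33 arrays. It rose 1.34-fold (limma, adjusted p 0.0408), and was lost whichever array was left out. Irf9, which gives that complex its DNA contact, differed by 0.11 with an SE of 0.05 (limma, adjusted p 0.399). Of 9 receptor and JAK-STAT genes Stat2 was the only one to pass, and the group median was 0.09. The receptor chain genes Ifnar1 and Ifnar2, named after their values were seen, differed by 0.03 ± 0.05 and 0.09 ± 0.05 (SE).

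Interferon genes themselves did not pass. Of 19 ligands, 10 had a difference above 0 and 9 below, with a median of 0.01. In 4 of the 19 the groups did not overlap, each with the IL-33 arrays higher, against 10.3% of all genes. At an unadjusted p under 0.05, 4 ligands were higher, against 6.42% of all genes (limma). Ifnb1, the interferon that macrophages make first, had log2 values of 3.85, 3.84 and 3.93 in the PBS arrays and 4.22, 4.08 and 4.18 in the IL-33 arrays. The groups did not overlap, the difference was 0.29 ± 0.06 (SE) and the adjusted p was 0.104 (limma). These values lie at the lower end of the array scale, and the table has no detection calls. The smallest p of the list belonged to Ifna14, which differed by 0.52 ± 0.10 (SE) with an adjusted p of 0.0982 (limma). Type I interferon genes are alike in sequence, so probe sets of single members may read several of them.

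The adaptors and kinases that carry sensor signals had a median difference of 0.03 over 10 genes, and none passed. Irf7, the interferon-induced factor that amplifies interferon production, had log2 values of 12.18, 12.16 and 12.23 in the PBS arrays and 12.41, 12.47 and 12.46 in the IL-33 arrays. It differed by 0.26 ± 0.05 (SE) with an adjusted p of 0.0966 (limma). The kinase gene Ikbke followed with 0.24 ± 0.06 (SE) and an adjusted p of 0.155 (limma). None of 6 endosomal receptor genes passed. Tlr3, which reads double-stranded RNA, differed by 0.40 ± 0.07 (SE), and Tlr13, which reads bacterial ribosomal RNA, by -0.34 ± 0.07 (SE), with adjusted p of 0.0666 and 0.0915 (limma).

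Further antiviral effectors that were not members had a median difference close to that of the members, 0.25 over 22 genes, with 21 above 0. Slfn1, a Schlafen protein that restrains cell growth, rose 1.74-fold (limma, adjusted p 0.0131) and was lost in 3 of 6 fits without an array. Epsti1, an interferon-response gene of macrophages, rose 1.32-fold (limma, adjusted p 0.0485) and was lost in all 6. The other 20 did not pass.

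**Figure D4:**
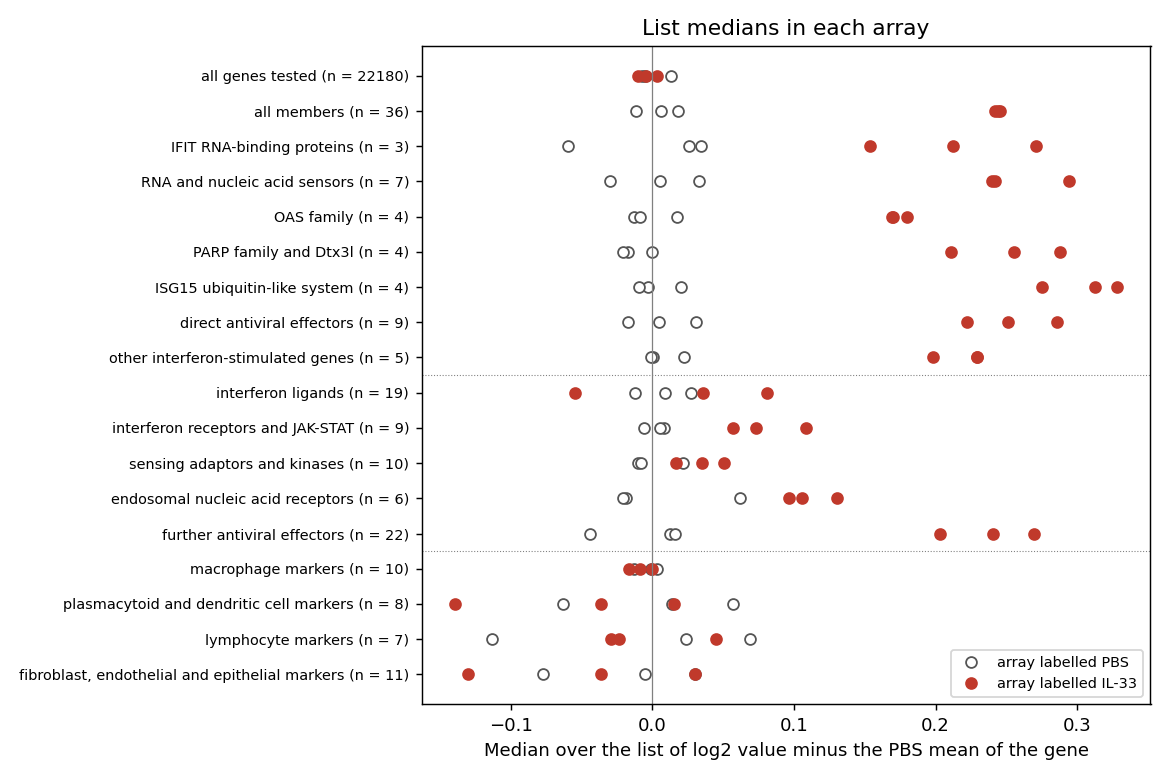
Each circle is the median over a list, in 1 array, of the log2 value minus the PBS mean of each gene (x axis), open for PBS and red for IL-33, with the number of genes beside each list name. The 7 member functions and the further effectors lie between 0.15 and 0.33 in the IL-33 arrays, while macrophage markers and all genes stay within 0.02 of 0.

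**Figure D5:**
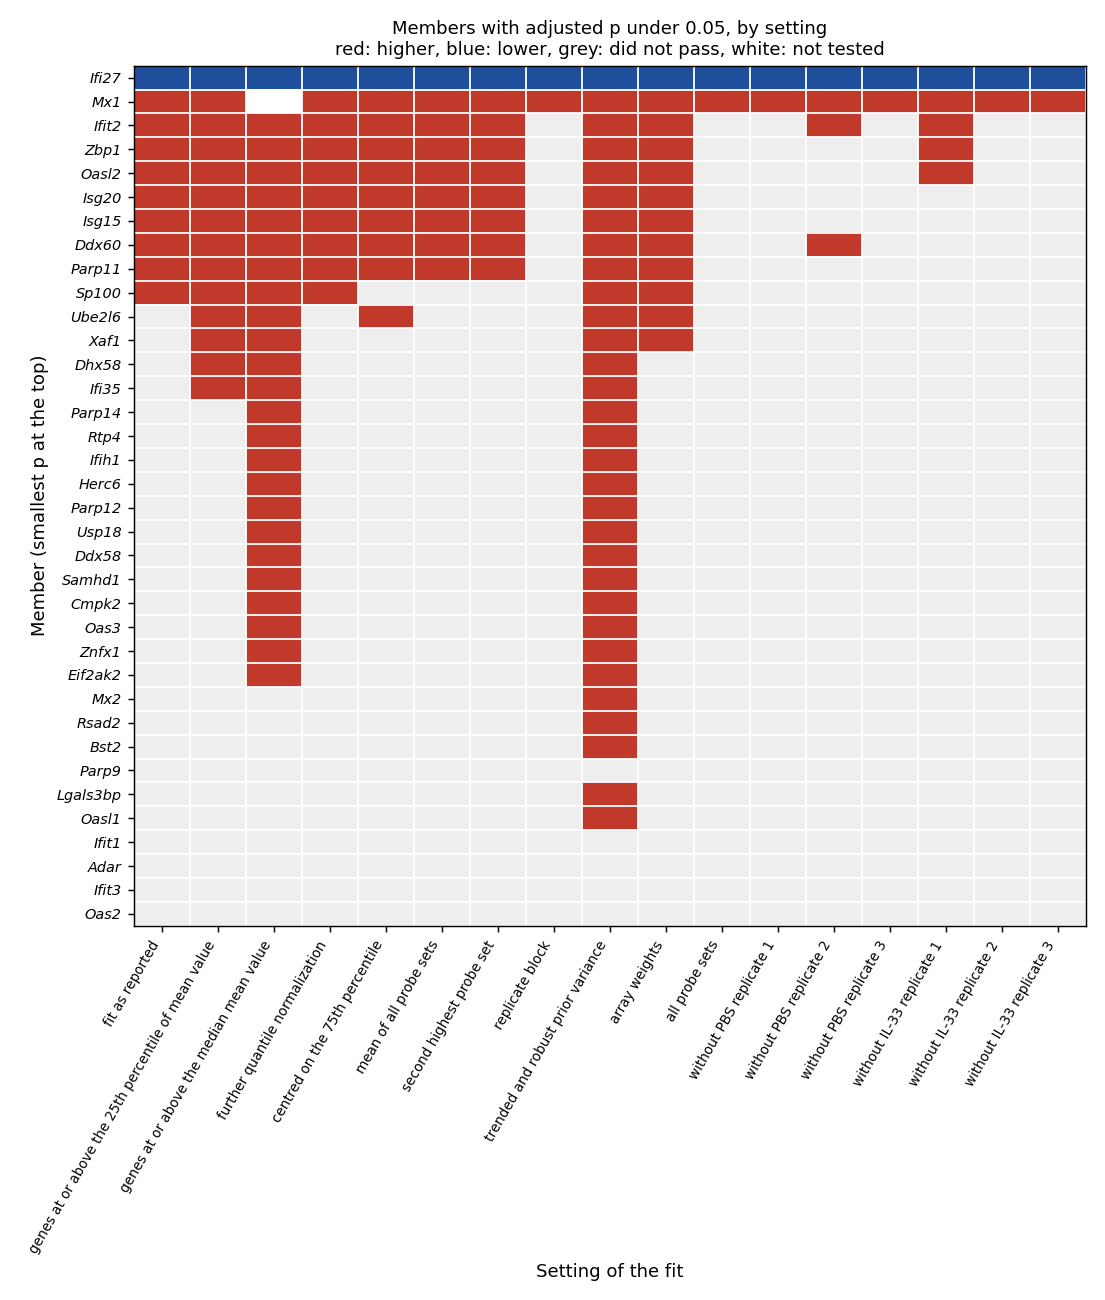
Rows are the 36 members, smallest p at the top, and columns are the fit as reported and 16 other settings, with red for an adjusted p under 0.05 and higher, blue for lower, grey for not passed and white for not tested. Ifi27 passes in every column, Mx1 in every column where it was tested, and the 8 others that rose are lost in most columns that leave out an array.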

How the data were processed

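Total RNA of 6 samples was amplified, labelled with biotin and read on whole-transcript arrays, per the labels' protocols. The authors deposited 1 log2 value per probe set and array, computed by RMA per the submitters' processing notes, with no version given there. RMA equalises the distribution of values between arrays, so a shift common to most genes would be hidden.

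Of 41345 probe sets, 23521 carried exactly 1 gene symbol and stood for 22180 genes, each by its probe set with the highest mean. The values were fitted as deposited with limma 3.58.1 in R 4.3.3 (lmFit, eBayes, group as the only term, no filter), with Benjamini-Hochberg adjustment over all genes. The fit was tested on simulated data with independent errors, variances taken from the fit itself and differences larger than those of most members. That test therefore does not cover smaller differences, paired samples or technical replicates. Folds are 2 to the power of the log2 difference. Promoter sequences are those of RefSeq, assembly GRCm38.p6. Figures were drawn with matplotlib 3.10.9.

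The members and lists were chosen with earlier results of these data known. Values in every array were given for members that passed and for up to 3 further members of each function with the smallest p. Of the other lists, genes that passed or up to 2 with the smallest p were named, and Ifnb1, Stat2, Irf9 and Irf7 in any case. Alternatives covered the filter on dim genes (25th percentile or median), the normalization (quantile again, or centred on the 75th percentile), the probe set (mean, second or every one), and the model (replicate block, trended and robust prior variance, array weights, each array left out).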

Additional observations from a re-analysis of the deposited data

How the results depend on the processing

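The median member difference of 0.24 was 0.22 with the mean of all probe sets and 0.23 to 0.25 without an array. In place of 131 genes and 10 members, 9 of them higher, the count of calls was 296 genes among those at or above the 25th percentile of mean value, 760 genes and 25 members (24 higher) at or above the median, 1000 genes and 31 members (30 higher) with the trended and robust prior variance, and 17 probe sets and 2 members (1 higher) over all probe sets. Leaving out 1 array gave 15 to 83 genes and 2 to 5 members, 1 to 4 of them higher, with fewer samples in the fit. Ifi27 was the single lower member throughout.

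With the replicate number as a block, 21 genes and 2 members passed, 1 higher. Same-numbered arrays correlated at 0.08, 0.09 and 0.02 in their deviations from the group means, and 2 of the 3 PBS arrays correlated best with their own number. With 3 arrays a group these correlations cannot decide whether the numbers mark pairs. The fit as reported did not take them as pairs.

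By function, calls went from 2 to 7 of the sensors, from 1 to 4 of the ISG15 system and from 1 to 3 of the PARP family at or above the median and with the trended prior alike. OAS calls went from 1 to 2 and 3 in these settings, effectors from 3 to 8 with the trended prior, and the remaining members from 1 to 4 and 5. At or above the 25th percentile the ISG15 system had 2 and the remaining members 3. The ISG15 system also had 2 with centring and 2 with array weights. The remaining members had 2 with array weights. With the block and over all probe sets the effectors had 1, the remaining members 1 and the other functions 0. Without an array the sensors had 0 to 1, IFIT and OAS 0 to 1, the effectors 1, and the ISG15 system and PARP family 0. The median of the remaining members was 0.14 with either other choice of probe set and 0.21 to 0.25 without an array. The other function medians moved by less than their spread between arrays. The cause of these changes was not tested beyond the fewer genes or samples that a setting holds by construction. None of the 10 members that passed changed direction in these fits; 1 of the probe sets of Sp100 not used for it differed by -0.06.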

Other observations

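Within the further antiviral effectors, gene families differed in their values, which were picked out here after they were seen. The Schlafen genes Slfn2, Slfn4, Slfn5 and Slfn8 had log2 differences of 0.26, 0.26, 0.23 and 0.24 beside the 0.80 of Slfn1, each with separate groups. The oligoadenylate synthetase genes Oas1b, Oas1c and Oas1g had 0.21, 0.40 and 0.18, also with separate groups, beside the 0.02 of Oas2. Separate groups with IL-33 higher were found in 17 of the 22 further effectors and in 10.3% of all genes, so they do not set these families apart. The IFITM genes, which block the fusion of viruses with membranes, had differences of -0.04 for Ifitm1, 0.15 for Ifitm2, 0.02 for Ifitm3 and 0.01 for Ifitm6, and the groups overlapped in all 4. Ifitm3 lay at 13.04 and 13.05 (log2) in the PBS and IL-33 arrays, near the top of the scale. No test compared these families. Among the genes named in these families, only Slfn1 passed over all genes (limma).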
